A study of Mus musculus with 3 samples.

Results

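Levels of 40 genes of the endoplasmic reticulum (ER), its secretory machinery and the unfolded protein response were measured in cells of the mouse pancreas. The genes were chosen by name, from a list of sensors, chaperones, translocation and modification enzymes and degradation factors, and all 40 were present among the 31053 genes of the count tables. Earlier results of these data were known when they were chosen. Live CD45+ cells had been sorted from the digested pancreas and profiled by droplet-based single-cell RNA sequencing (10x Genomics 3' chemistry). Each of the 3 libraries was a group: PBS, in which the mice received the vehicle, 3-day WGP and 7-day WGP, in which WGP was given 3 or 7 days before the pancreas was taken. WGP are whole beta-glucan particles from the yeast Saccharomyces cerevisiae, injected into the peritoneal cavity. The study's general methods name wild-type C57BL/6 mice of both sexes, aged 6 to 8 weeks, but neither the sex nor the number of mice behind a library is stated in the labels. Each group was thus 1 library, no difference between groups could be tested, and every difference below is a description of these libraries.

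Proteins bound for secretion enter the ER through the Sec61 channel, lose their signal peptide, receive N-linked glycans and are folded by chaperones of the Hsp70, Hsp90, lectin and disulfide isomerase families. Chains that fail to fold are drawn back out and degraded. When unfolded protein accumulates, the sensor IRE1 (Ern1) splices the mRNA of the transcription factor Xbp1, while the PERK and ATF6 branches act through Atf4, Ddit3 and ATF6 itself, and these factors raise the genes of the same machinery. In the pancreas the system is best known from acinar cells, which secrete digestive enzymes, and among CD45+ cells from antibody-secreting plasma cells, in which Xbp1 is required for the secretory state.

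The 3 libraries held between 48219246 and 56849043 unique molecular identifiers (UMIs, each standing for 1 captured RNA molecule), and between 4174 and 5249 barcodes had at least 1000 UMIs and at most 30% mitochondrial UMIs. At most 9 of these barcodes were shared by any pair of libraries. Cells were grouped without the 40 members, 83 other ER genes or the immunoglobulin genes, and a class name below stands for clusters named from markers, such as plasma-cell-like. The plasma cell class held 820 cells in 3 clusters, which raised 6 or 7 of the 9 plasma cell markers found, Jchain, Tnfrsf17 and Sdc1 among them. Ptprc, which encodes CD45, was at 177 UMIs per 1000000 (CPM) in plasma cells and at 783 CPM in B cells, but at 25.3 CPM, from 4 UMIs, in the acinar class of 37 cells, whose 14 acinar markers were all raised.

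Promoters of the members were first read for the sites through which the unfolded protein response is known to act. In RefSeq windows of 300 bases around the start of each gene (250 before and 50 after, assembly GRCm38.p6), 33 of the 40 members could be matched. These members had 36 windows, with 2 for Rpn2 and 3 for Txndc5. The windows of 9 of these 33 members held the ER stress response element (ERSE: CCAAT, 9 bases of any kind, then CCACG, on either strand), which is 27.3% of them against 0.165% of the 19407 genes with a window and 0 of the 68 other ER genes with one. They are shown because they are the motif most unevenly spread between the members and all genes. Capitals mark the half-sites: CCAAT is known to be bound by NF-Y, and CCACG by ATF6 or XBP1. The Hspa5 match lies in an annotated exon and is printed without flanks.
Hspa5, chr2:34772025-34772043, + strand: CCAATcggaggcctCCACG
Hsp90b1, first match, chr10:86705523-86705561, + strand: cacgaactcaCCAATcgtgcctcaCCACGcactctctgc
Hsp90b1, second match, chr10:86705628-86705666, - strand: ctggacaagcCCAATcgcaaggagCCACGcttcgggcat
Dnajc3, chr14:118937817-118937855, + strand: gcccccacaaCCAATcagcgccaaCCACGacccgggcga
Creld2, chr15:88819510-88819548, - strand: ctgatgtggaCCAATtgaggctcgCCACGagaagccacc
Calr, chr8:84847065-84847103, + strand: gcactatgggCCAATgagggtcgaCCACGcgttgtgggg
Canx, chr11:50325790-50325828, - strand: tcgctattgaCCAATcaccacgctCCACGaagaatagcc
Pdia6, chr12:17266481-17266519, + strand: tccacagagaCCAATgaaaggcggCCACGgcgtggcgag
Derl3, chr10:75893232-75893270, - strand: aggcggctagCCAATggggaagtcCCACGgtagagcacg
Syvn1, chr19:6046522-6046560, + strand: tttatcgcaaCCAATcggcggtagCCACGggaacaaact

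The matches of Hspa5, Dnajc3, Canx, Pdia6 and Syvn1 ran in the direction of their gene, those of Creld2, Calr and Derl3 ran against it, and Hsp90b1 held one in each direction. The shorter form ERSE-II (ATTGG, 1 base of any kind, then CCACG) was found in 2 members, Herpud1 and Dnajb11, against 0.0567% of all genes with a window. A UPRE core (TGACGTGG), the element bound by spliced XBP1, was found in 1 member, Txndc5, against 0.824% of all genes with a window and 8.82% of the other ER genes with one. The composite site of ATF4 (TGATGCAAT) was found in none of the 33 members and in 0.237% of all genes with a window. In the sequences below, capitals mark the whole site, and the single base between the half-sites of ERSE-II is in lower case. The Dnajb11 and Txndc5 matches lie in annotated exons and are printed without flanks. That of Dnajb11 begins after the RefSeq start of the gene. By the gene spans of GENCODE, the matches of Txndc5 (chr13:38500079-38528824, - strand) and Hspa5 (chr2:34771970-34777547, + strand) lie inside the gene too.
Herpud1, chr8:94386367-94386397, + strand: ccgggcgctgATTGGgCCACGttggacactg
Dnajb11, chr16:22857852-22857862, + strand: ATTGGcCCACG
Txndc5, chr13:38528045-38528052, - strand: TGACGTGG

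Together the 40 members took a larger share of RNA in plasma cells than in any other class. Their UMIs made up 2.27% of all plasma cell UMIs in PBS (95% interval for counting error 2.25% to 2.28%), 2.90% at 3 days (2.89% to 2.90%) and 1.96% at 7 days after WGP (1.95% to 1.98%). In B cells, from which plasma cells derive, the shares were 0.572%, 0.524% and 0.514%. Acinar cells lay lower still, at 0.362%, 0.310% and 0.323%. Between these classes lay plasmacytoid dendritic cells (pDC), at 0.916% to 1.05%, conventional dendritic cells, at 0.749% to 0.808%, and monocytes and macrophages, at 0.624% to 0.769%, while neutrophils lay at 0.26% to 0.28%. Barcodes of at most 100 UMIs, which hold free RNA, carried member shares of 0.615%, 1.02% and 0.585%. The free RNA was estimated to make up 1.08% to 2.58% of the UMIs of a cell.

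Plasma cells were 4.45%, 10.9% and 2.08% of the cells in PBS, 3-day WGP and 7-day WGP, and held 41.2%, 67.6% and 22.3% of all member UMIs of the 3 libraries in the same order. Their immunoglobulin transcripts took 45.7%, 42.4% and 58.2% of plasma cell UMIs. Of the UMIs left after those of immunoglobulin genes, the members made up 4.17%, 5.02% and 4.69%. The denominator therefore matters for every plasma cell level: on the scale of UMIs other than immunoglobulin, all genes of plasma cells stand 0.85, 0.76 and 1.23 higher in log2 against B cells than on the scale of all UMIs.

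**Figure D1:**
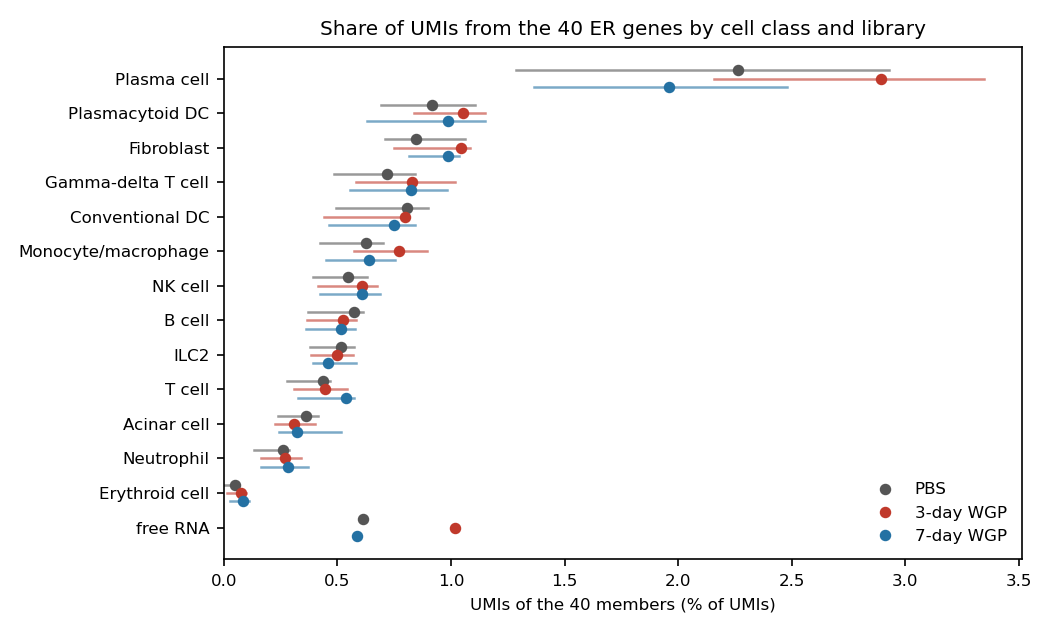
Share of UMIs taken by the 40 members (percent, x axis) in each cell class and in free RNA (y axis), with 1 point per library and a line from the lower to the upper quartile over cells. The plasma cell points lie between 1.96% and 2.90%, above those of every other class.

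Within a library, plasma cells were compared with B cells, which were processed in the same tube. In PBS, 33 of the 40 members were at least 2-fold higher in plasma cells, in a comparison in which 7.65% of the 11263 genes tested (at least 30 UMIs) were that much higher and 45.2% that much lower. The count was 35 at 3 days (8.43% of genes higher, 46.0% lower) and 31 at 7 days (7.77% and 63.6%), and no member was 2-fold lower in any library. The median log2 ratio of the members was 1.97, 2.29 and 1.81, where that of all genes was -0.91, -0.91 and -1.38. In every library alike, 31 members were at least 2-fold higher, against 5.2% of all genes tested (35.0% were that much lower in every library).

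**Figure D2:**
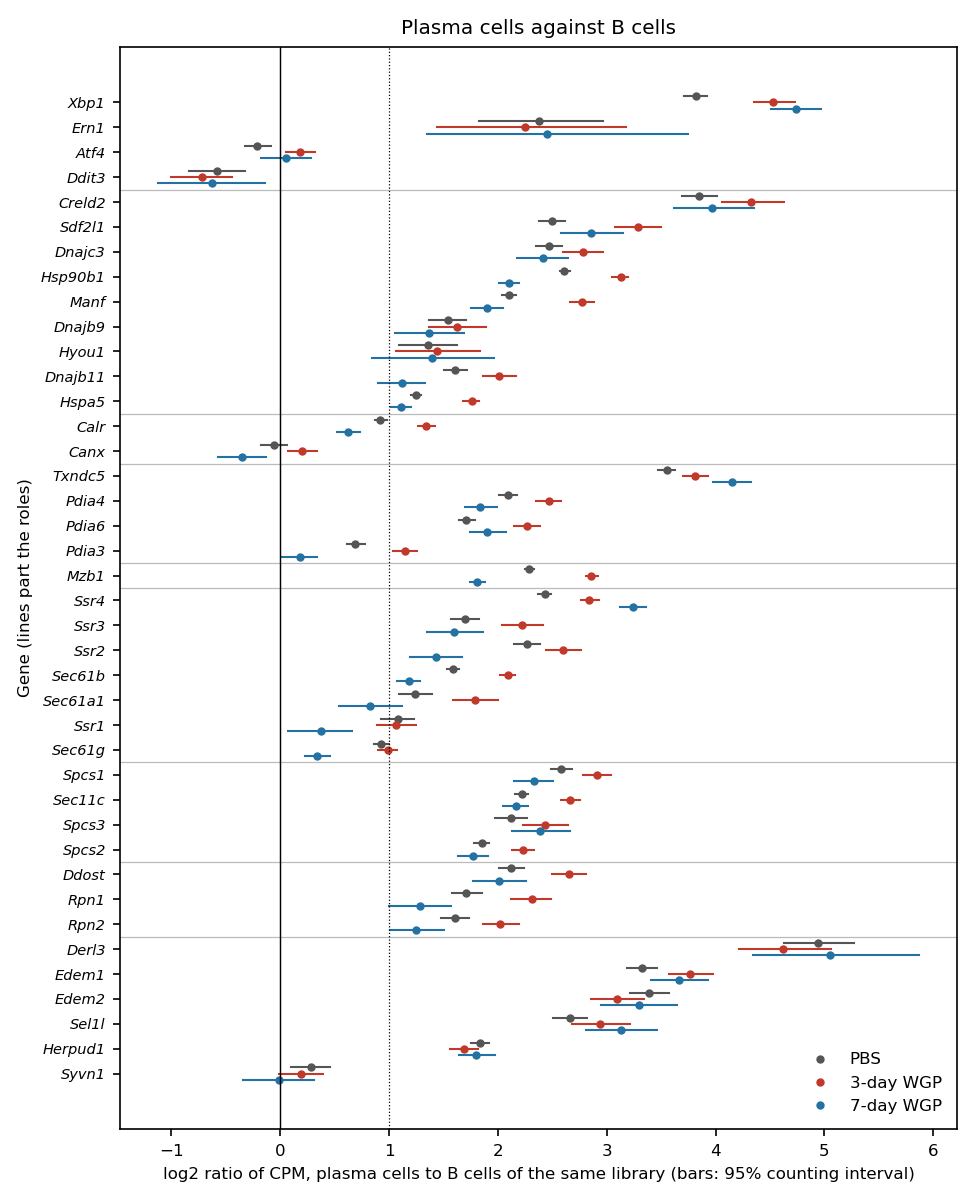
Log2 ratio of plasma cells to B cells (x axis) for each of the 40 members (y axis), with 1 point per library and 95% intervals for counting error. Derl3, Creld2 and Xbp1 stand highest, all above 3.8, and Atf4, Ddit3, Canx and Syvn1 lie around 0.

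Of the 4 sensors and transcription factors, Xbp1 and Ern1 transcripts were at least 2-fold higher in plasma cells in every library, and those of Atf4 and Ddit3 were not. Xbp1 (chr11:5520659-5525893, + strand), the transcription factor that drives the secretory state, measured 951, 1167 and 1399 CPM in the plasma cells of PBS, 3-day WGP and 7-day WGP. In B cells it measured 67.5, 50.4 and 52.4 CPM. The plasma cell values lay above all B cell values, by 14.1-fold, 23.2-fold and 26.7-fold, or on the log2 scale 3.82 (3.71 to 3.92), 4.53 (4.35 to 4.73) and 4.74 (4.51 to 4.97). Ern1, the sensor that splices Xbp1 mRNA, was scarce in both classes, at 15.4, 13.4 and 13.9 CPM in plasma cells and 2.95, 2.81 and 2.54 CPM in B cells. The tables count UMIs by gene, so spliced and unspliced Xbp1 were not separated. Atf4, the factor translated under PERK signalling, stood at 130, 147 and 102 CPM in plasma cells and 150.1, 130 and 98.4 CPM in B cells. By UMIs other than immunoglobulin, all 40 members were higher in plasma cells in each library, Atf4 among them. Ddit3, encoding the stress factor CHOP, was lower in plasma cells than in B cells in each library, with log2 ratios of -0.58, -0.72 and -0.63, although by UMIs other than immunoglobulin its ratios were above 0, the smallest being 0.04.

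All 9 Hsp70 and Hsp90 chaperones and their helpers were at least 2-fold higher in plasma cells in every library. Hspa5, encoding BiP, the ER Hsp70 that also holds the sensors inactive, measured 1483, 1185 and 997 CPM in plasma cells. In B cells it measured 625, 351 and 461 CPM, giving log2 ratios of 1.25, 1.76 and 1.11, among the smallest of the group. Hsp90b1, the ER Hsp90 (chr10:86690209-86705509, - strand), measured 2691, 3085 and 1651 CPM against 439.9, 353 and 385 CPM in B cells. Every plasma cell value of these genes exceeded every B cell value. Creld2, a stress-induced ER protein, reached log2 ratios of 3.85, 4.33 and 3.97, the highest of the 9. Sdf2l1, a partner of the ER DnaJ proteins, had ratios of 2.50, 3.29 and 2.86, and Manf, a BiP-binding factor that can also be secreted, of 2.10, 2.77 and 1.90. The J-proteins that hand clients to BiP were higher by 2.41 to 2.78 (Dnajc3), 1.12 to 2.01 (Dnajb11) and 1.37 to 1.62 (Dnajb9). Hyou1, the exchange factor of BiP, was higher by 1.36 to 1.44.

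The lectin chaperones and their isomerase stood apart from the other folding genes. Calr and Canx encode calreticulin and calnexin, which bind glycans on new chains, and Pdia3 encodes the isomerase they recruit. Calr measured 853, 955 and 574 CPM in plasma cells and 450.0, 376 and 373 CPM in B cells, reaching 2-fold at 3 days only (log2 ratios 0.92, 1.34 and 0.62). Canx measured 131, 139 and 94.99 CPM in plasma cells and 136, 121 and 121 CPM in B cells, so that the classes overlapped. Pdia3 had log2 ratios of 0.69, 1.15 and 0.18. The other isomerases, by contrast, were each more than 3-fold higher in every library: Txndc5 by 3.55, 3.81 and 4.15 on the log2 scale (1373, 1851 and 1601 CPM against 117, 132 and 90.2 CPM), Pdia4 by 2.09, 2.47 and 1.84 and Pdia6 by 1.71, 2.27 and 1.90. Canx and Pdia3 were among the members highest in other classes, as given below.

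Mzb1, a chaperone of B-lineage cells that assists the assembly of IgM, measured 2720.0, 4522 and 2126 CPM in plasma cells. B cells expressed it too, at 555, 621 and 606 CPM, and the log2 ratios were 2.29, 2.86 and 1.81. The 4 members of signal peptidase, which removes signal peptides, had medians of 2.17, 2.54 and 2.25. Spcs1 reached 2.58, 2.91 and 2.33, and Sec11c, a catalytic subunit, 2.22, 2.66 and 2.17. Spcs2 (1.85, 2.23 and 1.77) and Spcs3 (2.12, 2.43 and 2.39) lay close by. The 3 members of the oligosaccharyltransferase, which attaches N-linked glycans, had medians of 1.71, 2.31 and 1.28, with Ddost at 2.12, 2.65 and 2.01, Rpn1 at 1.71, 2.31 and 1.28 and Rpn2 at 1.61, 2.02 and 1.25. Both complexes were thus above 2-fold in each library with all their members.

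Translocon members were less uniform. Ssr4, of the translocon-associated protein complex, measured 1302, 1881 and 1888 CPM in plasma cells and 242, 262 and 199.7 CPM in B cells (log2 2.43, 2.84 and 3.24). Ssr2 of the same complex reached 2.27 in PBS and 1.43 at 7 days, and Ssr3 reached 1.70 and 2.22 in PBS and at 3 days. Ssr1 reached only 1.08, 1.06 and 0.37. Of the Sec61 channel itself, Sec61b was higher by 1.59, 2.09 and 1.18 and the pore subunit Sec61a1 by 1.24, 1.79 and 0.82. Sec61g, the smallest subunit, stayed under 2-fold in all libraries (0.93, 0.99 and 0.34). In all, 4 of the 7 translocon members were at least 2-fold higher in every library.

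Degradation genes included the largest ratios of the 40. Derl3 (chr10:75893413-75895941, + strand), of the Derlin family in the export channel for misfolded chains, measured 213, 261 and 169 CPM in plasma cells and 6.93, 10.6 and 5.08 CPM in B cells. This is 30.7-fold, 24.6-fold and 33.2-fold, with log2 ratios of 4.94 (4.63 to 5.27), 4.62 (4.22 to 5.06) and 5.05 (4.34 to 5.87). Edem1 and Edem2, which trim mannose from chains to be degraded, reached 3.32 to 3.77 and 3.09 to 3.39. Sel1l, the scaffold of the HRD1 ubiquitin ligase, reached 2.66, 2.94 and 3.13, whereas Syvn1, the ligase itself, was at 62.1, 64.7 and 49.7 CPM in plasma cells and 51.2, 56.7 and 50.2 CPM in B cells (0.28, 0.19 and -0.01). Herpud1, a stress-induced partner of that ligase, reached 1.84, 1.69 and 1.80.

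Members with and without an ERSE in the window were set side by side. Of the 9 members with an ERSE, 6 were at least 2-fold higher in every library, with medians of 1.71, 2.27 and 1.90. Of the 24 matched members without one, 19 were, with medians of 1.84, 2.24 and 1.79. Canx, Calr and Syvn1, with an ERSE each, were the 3 exceptions. Among the 23 genes outside the list with an ERSE in their window, 6 had enough UMIs to be compared and none was 2-fold higher in every library, where 3.75% of the genes outside the list without an ERSE were.

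Measured by cells rather than by summed UMIs, the same members separated the classes. After each cell was thinned to 1000 UMIs, Xbp1 was seen in 53.6% (exact 95% binomial interval 46.8% to 60.2%), 67.8% (63.5% to 71.8%) and 61.9% (50.7% to 72.3%) of plasma cells. It was seen in 5.84%, 4.80% and 3.92% of B cells and in 5.71%, 4.71% and 5.47% of T cells, so that B cells stood at the level of T cells. Mzb1 was seen in 80.8%, 94.3% and 67.9% of plasma cells and in 35.4%, 36.4% and 38.4% of B cells, and in at most 1.10% of T cells, which should lack it. Derl3 was seen in 17.0%, 24.2% and 10.7% of plasma cells and in at most 0.720% of B cells. Without thinning, with median depths of 23800 to 39724 UMIs in plasma cells and 3838 to 4873 UMIs in B cells, Derl3 was seen in 89.7%, 93.95% and 84.5% of plasma cells and in at most 3.601% of B cells. Unthinned shares of Xbp1 were 90.5% to 99.2% in plasma cells and 19.1% to 23.8% in B cells, and those of Mzb1 85.7% to 98.8% and 72.2% to 80.4%.

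Other classes had a pattern of their own. The ranking covered 11 classes and left out fibroblasts, endothelial and erythroid cells. By CPM of all UMIs, 24 of the 40 members were highest in plasma cells in all 3 libraries. By UMIs other than immunoglobulin 35 were, the exceptions being Ern1, Ddit3, Canx, Pdia3 and Ssr1. The unranked fibroblasts (58 cells) exceeded plasma cells in some of the 24 by CPM of all UMIs. Among them were Hspa5 at 7 days (1018 against 997 CPM) and Pdia6 in PBS (569 against 552 CPM). Ssr2 (204.6 against 166.5 CPM) and Ddost (249.5 against 221 CPM) were others, both at 7 days. The share of all genes highest in plasma cells is not given here. Of these 11 classes, group 2 innate lymphoid cells (ILC2) had the highest Ern1 in every library, at 44.6, 40.8 and 88.9 CPM, the last from 11 cells. Monocytes and macrophages had the highest Canx of the 11, at 320.4, 461 and 262 CPM, and the unranked fibroblasts had 328, 313 and 279 CPM. The pDC had the highest Sec61g and Ssr1 of the 11 by CPM of all UMIs, Sec61g at 632, 626 and 682 CPM and Ssr1 at 158, 197 and 204 CPM. Of the unranked classes, erythroid cells had Sec61g at 444, 702 and 817 CPM, and fibroblasts had Ssr1 at 168, 122.5 and 139.7 CPM. The pDC are interferon-producing cells with a well-known plasma-cell-like morphology. Against B cells of the same library, their members had median log2 ratios of 0.85, 1.03 and 1.10 (all genes 0.24, 0.20 and 0.28), with 16, 20 and 23 members at least 2-fold higher (20.7%, 19.3% and 22.9% of genes were, and 10.0%, 11.4% and 10.7% were that much lower). Xbp1 in pDC was at 202, 295 and 376 CPM, between B cells and plasma cells. Derl3 had 0 UMIs in pDC of PBS and of 7-day WGP (42 and 50 cells), where the limit set at 3 UMIs lies at 11.03 and 9.02 CPM, and it had 7 UMIs, or 15.7 CPM, in pDC of 3-day WGP.

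**Figure D3:**
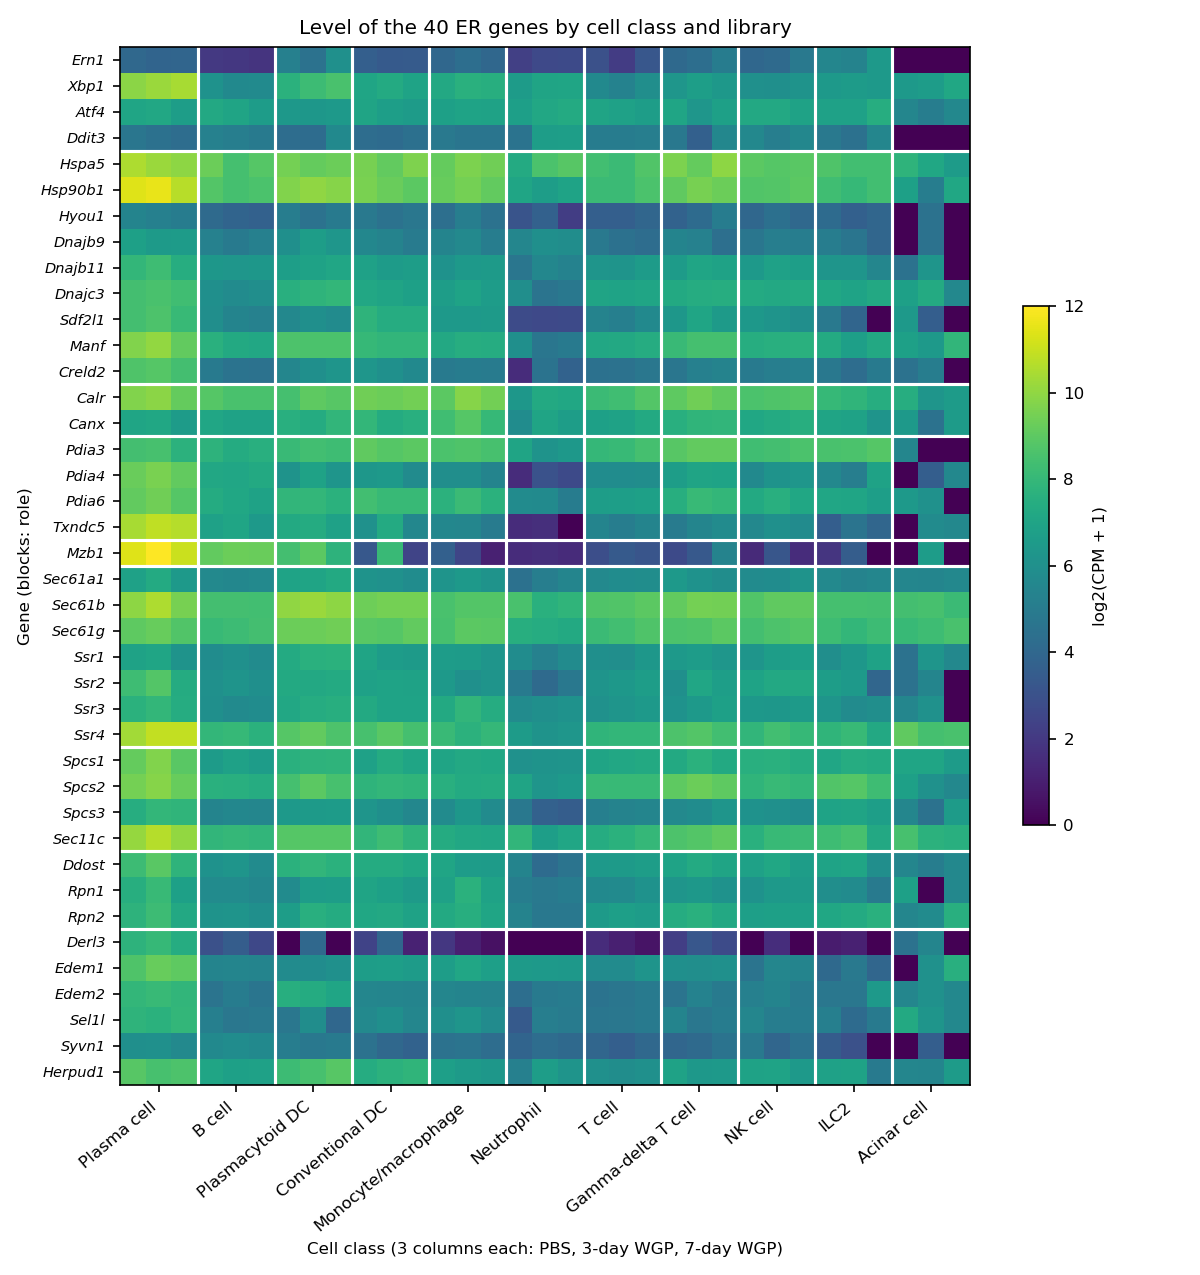
Levels of the 40 members (rows, in blocks by role) in 11 cell classes, with 3 columns each for PBS, 3-day WGP and 7-day WGP, coloured by log2 of CPM plus 1. The plasma cell columns are brightest for most rows, and Derl3 is near the lower end of the scale in every class but plasma cells and parts of pDC, dendritic and acinar cells.

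The acinar class held 37 cells with 157855 UMIs, of which 63.3% came from the 14 acinar markers, the transcripts of digestive enzymes and their cofactors. It had 515 member UMIs from 38 of the 40 genes, and the members were 0.326% of all UMIs and 0.888% of the UMIs that are not from acinar markers. Of the member UMIs, 9 were of the B-lineage gene Mzb1, all in the 3-day library, and the plasma cell marker Jchain stood at 253 CPM. Free RNA was not subtracted from the acinar levels, and the source of these transcripts was not tested. Hspa5 was at 158 CPM (103 to 234), lower than in the B cells of all libraries together by a log2 ratio of -1.76 (-2.39 to -1.20). Hsp90b1 (-2.56) and Calr (-1.97) were lower too. Sel1l (1.56) and Dnajc3 (1.15) were higher than in B cells, and Xbp1, at 101 CPM, had a ratio of 0.73 whose interval includes 0 (-0.09 to 1.43). All acinar levels share the denominator set by the enzyme transcripts. On the UMIs that are not from acinar markers every acinar ratio would stand higher, and such ratios are not given here.

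Members also varied among plasma cells. Of the 820 cells, 34 had under 10% immunoglobulin UMIs, and the 12 of these at 7 days had 0.221% immunoglobulin and a member share of 0.367%, below that of B cells. Plasma cells with at least 10% immunoglobulin had member shares of 2.26%, 2.89% and 2.02%, and of 4.23%, 5.04% and 5.12% of the UMIs other than immunoglobulin. A small cluster (cluster 29) led by Ube2c and Mki67, genes of dividing cells, carried 4.17% and 3.71% in PBS (18 cells) and 3-day WGP (58 cells), where the main cluster (cluster 7) carried 1.99% and 2.73%. The third cluster (cluster 38) had 5, 40 and 3 cells, and its cells in the 7-day library carried a member share of 0.583%. Cells whose heavy chain was IgM (744 cells) carried 2.14%, 2.89% and 2.02%. Cells with IgG (23 cells in all) carried 3.39%. In the plasma cells that expressed Y-linked genes and no Xist, the shares were 1.96%, 2.82% and 2.03% (117, 384 and 65 cells), and in those with Xist and no Y-linked transcript 2.70%, 4.30% and 1.03% (84, 24 and 9 cells), so that the libraries held cells of both sexes in unequal parts.

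**Figure D4:**
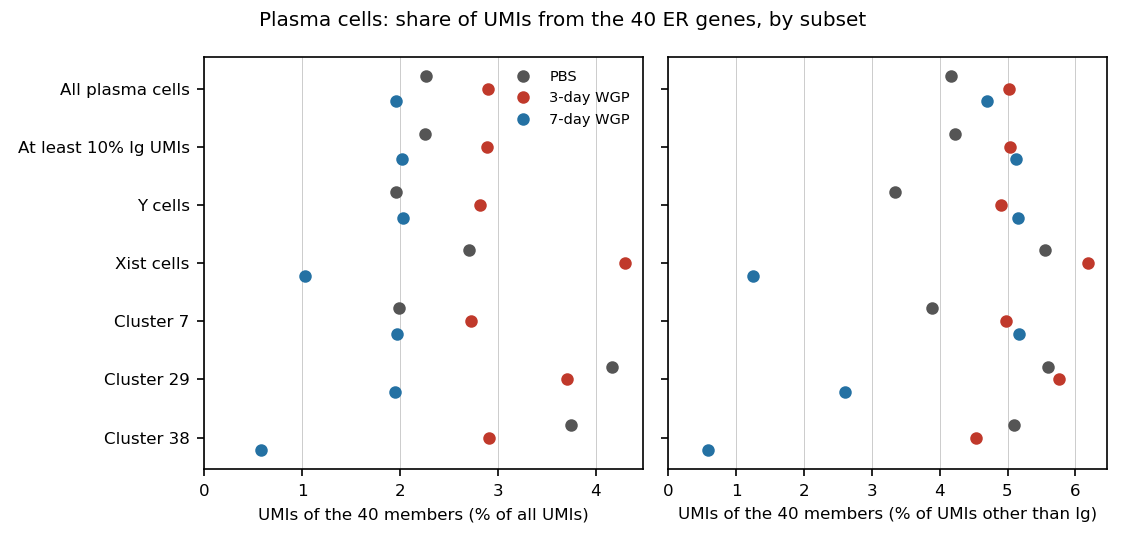
Share of UMIs from the 40 members (x axes, as a percent of all UMIs on the left and of UMIs other than immunoglobulin on the right) in groups of plasma cells (y axis), with 1 point per library. Dividing cells (cluster 29) in PBS lie at 4.17% and the main cluster (cluster 7) in PBS at 1.99%.

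Between PBS and 3-day WGP, plasma cell levels differed by less than 2-fold for all 40 members (1.66% of 10108 genes were at least 2-fold higher, 2.54% lower). The median log2 ratio of the members was 0.28 where that of all genes was -0.02, with 33 members higher and 7 lower. All 14 members of the translocon, signal peptidase and oligosaccharyltransferase were higher in the 3-day library, also by UMIs other than immunoglobulin, with medians of 0.48, 0.52 and 0.57. Mzb1 had the largest ratio, 0.73 (0.71 to 0.76). Ddost (302 and 480.4 CPM) followed with 0.67 (0.60 to 0.74), and Spcs1 (566 and 856 CPM) with 0.60 (0.54 to 0.65). The 7 lower members were Herpud1, at -0.38 (-0.44 to -0.31), Hspa5, at -0.32 (-0.36 to -0.29), Ddit3, Dnajb9, Hyou1, Ern1 and Sel1l. Other chaperone and degradation members were higher, among them Manf (0.33), Sdf2l1 (0.24), Edem1 (0.52) and Derl3 (0.29), as was Xbp1 (0.30), so that members induced by the unfolded protein response lay on both sides of 0. Within the Y-expressing plasma cells the median over the members was 0.47 and within the Xist-expressing ones 0.71.

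At 7 days the direction depended on the denominator. The median log2 ratio of the members against PBS was -0.33 (all genes -0.54), with 6 members higher and 34 lower, none by 2-fold (2.72% of genes were at least 2-fold higher, 19.9% lower). By UMIs other than immunoglobulin, which places every gene 0.38 higher, the median was 0.05, with 24 members higher and 16 lower. On both scales Xbp1 was higher, by 0.56 (0.50 to 0.61) on all UMIs, as were Ssr4 (0.54), Spcs3 (0.38), Edem1 (0.35), Txndc5 (0.22) and Sel1l (0.12). On both scales Ssr2 (-0.87) and Ssr1 (-0.75) were lower. All 6 degradation members and all 4 signal peptidase members were higher by UMIs other than immunoglobulin, whereas the 3 oligosaccharyltransferase members were lower. Between 3 and 7 days, Ssr2 (-1.41), Rpn1 (-1.24), Ddost (-1.12), Mzb1 (-1.09) and Rpn2 (-1.01) were at least 2-fold lower by CPM of all UMIs, where 18.0% of genes were, a larger share than 5 of 40. By UMIs other than immunoglobulin none of the members was, and with TMM scaling 1 was.

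**Figure D5:**
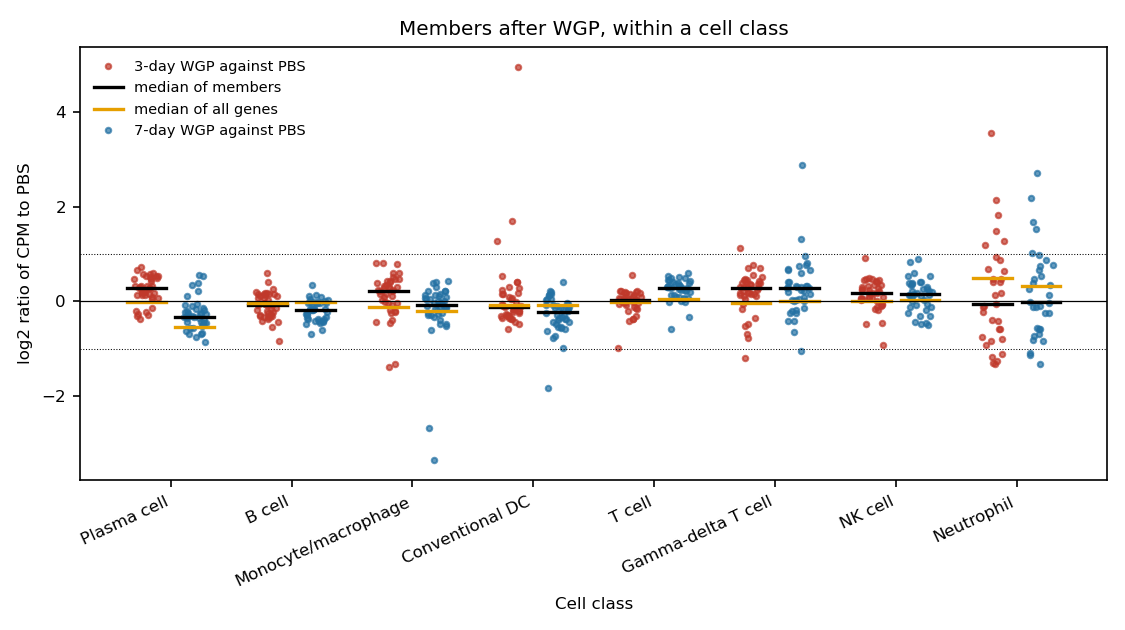
Log2 ratio of CPM to PBS (y axis) for the members tested in 8 cell classes (x axis), 1 point per member, at 3 days (red) and 7 days (blue), with the median of the members in black, that of all genes in orange and dotted lines at 2-fold. No plasma cell or B cell point passes 2-fold, and the dendritic cell point at 4.97 is Mzb1.

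B cells had no member 2-fold apart at 3 or 7 days (0.646% and 1.25% of genes were at least 2-fold higher, 1.49% and 3.53% lower). The medians were -0.07 and -0.18, and those of all genes -0.03 and -0.02. Hspa5 was the member furthest below PBS at 3 days, at -0.83 (-0.91 to -0.75), and stood at -0.44 at 7 days. Sdf2l1 (-0.55 and -0.69) and Xbp1 (-0.42 and -0.37) were lower at both times. Hspa5 was thus below PBS in both B cells and plasma cells at each time.

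In monocytes and macrophages the members had a median of 0.22 at 3 days (27 higher, 13 lower) and -0.07 at 7 days, where all genes had -0.11 and -0.21. Calr measured 509.7, 896 and 686 CPM, which is 0.81 (0.76 to 0.87) above PBS on the log2 scale at 3 days and 0.43 (0.38 to 0.48) at 7 days. Hspa5 measured 575, 801 and 671 CPM (0.48 and 0.22), above PBS, while in B cells and plasma cells it lay below, a difference between classes that was not tested. Canx, at 0.52 on day 3 and -0.29 on day 7, and Rpn1, at 0.79 and 0.05, were higher at 3 days, as was Hyou1, at 0.82 (0.55 to 1.09). Ssr2 (-0.46), Ssr4 (-0.44) and Ddost (-0.40) were lower at 3 days, so that members of the translocon and oligosaccharyltransferase lay on both sides of 0. The make-up of the class differed between libraries: one cluster held 574 of 867 cells in PBS and 27 of 1373 at 7 days. Within that cluster the median was 0.26 at 3 days and 0.09 at 7 days, and within the other large cluster 0.15 and -0.02.

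Only 2 members were 2-fold apart in monocytes and macrophages, Mzb1 and Derl3, both lower (11.6% and 15.4% of genes were at 3 and 7 days, and 6.12% and 6.39% were that much higher). Mzb1 measured 11.7, 4.66 and 1.14 CPM and Derl3 2.84, 1.10 and 0.445 CPM. Of the 103 Mzb1 UMIs in PBS, 79 were in 1 cell with at least 1% immunoglobulin UMIs. Without such cells Mzb1 measured 2.75, 3.84 and 0.700 CPM. The 3-day value rests on few UMIs (51 in the class, 9 of them in 1 such cell). No interval is given for it, so no direction against PBS is stated. In conventional dendritic cells Mzb1 was at 9.02, 283 and 4.55 CPM, and Derl3 (log2 ratio 1.71) and Txndc5 (1.27) were likewise at least 2-fold higher at 3 days (3.87% of genes were, and 5.24% were that much lower). There 932 of the 961 Mzb1 UMIs at 3 days were in 14 cells with at least 1% immunoglobulin. Without such cells Mzb1 measured 2.12, 9.58 and 4.55 CPM, Derl3 3.61, 4.29 and 1.24 CPM and Txndc5 59.6, 56.1 and 45.3 CPM. Part of the plasma cell transcripts in these classes therefore sat in few cells.

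In neutrophils the sums of the stress gene Ddit3 were above PBS in both WGP libraries. It measured 23.1, 102 and 104 CPM, and its log2 ratios were 2.15 (1.28 to 3.15) at 3 days and 2.18 (1.27 to 3.21) at 7 days. Hspa5 measured 161, 391 and 468 CPM (1.28 and 1.54). At 3 days 6 members were at least 2-fold higher and 5 lower of the 33 tested, in a class in which 29.5% of genes were that much higher and 7.93% lower. At 7 days 5 were higher (25.1%) and 3 lower (8.04%). Of the 81 PBS neutrophils, 36 were in a cluster led by Ngp, Camp and Ltf, the granule genes of immature neutrophils, against 11 and 6 cells in the WGP libraries. Within the other neutrophil cluster the Ddit3 ratios were 0.52 (-0.42 to 1.62) and 0.58 (-0.41 to 1.71). Those of Hspa5 were 0.41 (-0.07 to 0.92) and 0.73 (0.23 to 1.25). Canx stood at 2.44 (0.85 to 4.74) and 2.15 (0.52 to 4.48), but rested on only 3 UMIs in the PBS cells of that cluster. Among neutrophils with Xist and no Y-linked transcript (20, 10 and 18 cells), Ddit3 measured 7.56, 15.6 and 199.8 CPM, and among those with Y-linked transcripts and no Xist (6, 90 and 46 cells) 0, 102.5 and 58.6 CPM, so that the libraries differed in the sex of their neutrophils too. The Xist cells at 7 days held only 80092 UMIs of all genes and the Y-linked cells of PBS 27036. No intervals are given for these Ddit3 values, so no direction is stated within either group of cells.

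T cells differed little at 3 days, with a member median of 0.03. At 7 days the median was 0.29 (all genes 0.05), and 34 of the 39 members tested were higher, none by 2-fold (3.81% of genes were at least 2-fold higher, 1.81% lower). Calr, at 0.59 (0.47 to 0.71), Sec61g, at 0.53 (0.41 to 0.65), and Sec11c, at 0.52 (0.37 to 0.68), were the furthest above PBS, and Dnajb9, at -0.59 (-1.04 to -0.13), the furthest below it. Hspa5, at 0.38 (0.27 to 0.50), was higher in T cells, too.

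The other 83 ER genes, taken from lists of the same pathways, showed smaller ratios between plasma cells and B cells than the members, with medians of 0.67, 0.97 and 0.35. Members and lists were both chosen with earlier results of these data known, so this contrast may reflect the choice and is no test. Of the 77 tested in all libraries, 21 were at least 2-fold higher in every library and 2 lower. Of all genes tested, 5.2% were that much higher in every library and 35.0% lower. In the PERK and ATF6 list 3 of 12 were that much higher. The stress targets Chac1, which degrades glutathione, and Asns, which makes asparagine, were among these. Asns had ratios of 3.80, 4.44 and 5.88, at 31.1, 28.1 and 37.3 CPM in plasma cells. Both are known targets of Atf4, whose own transcript was level between the classes by CPM of all UMIs only. By UMIs other than immunoglobulin it was higher in plasma cells in each library. Folding enzymes (5 of 18) included the isomerase Fkbp11 (3.91, 4.47 and 3.87) and the peroxidase Prdx4 (3.63, 3.94 and 4.16). Translocation and glycosylation genes (3 of 17) included Srprb, of the signal recognition particle receptor (1.74, 2.33 and 1.40), and Krtcap2, an oligosaccharyltransferase subunit (1.52, 2.05 and 1.36). Degradation genes (5 of 11) included the ubiquitin-conjugating enzyme Ube2j1 (1.97, 2.12 and 1.72) and the lectin Erlec1 (1.63, 1.90 and 1.86). Genes of transport to the Golgi (5 of 19) included the cargo receptor Lman1 (2.72, 3.09 and 3.01) and the coat subunit Sec24d (3.56, 3.82 and 2.26).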

How the data were processed

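Sorted CD45+ pancreas cells were profiled in 3 libraries. Per the labels, these were quantified with Cell Ranger 3.1.0 against mm10. The deposited values are UMI counts per gene and barcode, unfiltered and not normalized by the authors.

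Barcodes with at least 1000 UMIs and at most 30% mitochondrial UMIs were kept in Python 3.11.15, and the highest simulated-doublet scores were removed up to 0.8% per 1000 cells (220, 190 and 139 cells). Cells were clustered with leidenalg 0.10.2 (2000 variable genes, 30 components, 20 neighbours, resolution 0.8). Clusters were named from marker lists, by limits set after the clusters were seen (at least 3 markers and 40% of a list raised). UMIs were summed by class and library and scaled to CPM. Intervals are exact 95% Poisson or binomial intervals and cover counting error only. A gene was compared where it had at least 30 UMIs. With 1 library per group no test was made, and p-values were not computed. Ratios were tested on simulated data. TMM factors came from edgeR 4.0.16 (R 4.3.3).

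The members and lists were chosen with earlier results of these data known. All members were reported; of the other ER genes, those with the largest smallest ratio in each list were named. Promoter sequences are from RefSeq (GRCm38.p6), and gene coordinates from GENCODE on GRCm38. Sequence of some members is not reported here. The number of value columns left unused was 0.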

Additional observations from a re-analysis of the deposited data

Results flagged for a closer look

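Ddit3 stood in opposite directions in neutrophils and gamma-delta T cells at 3 days, with log2 ratios to PBS of 2.15 and -1.19. The difference was not tested. Within the larger neutrophil cluster the ratio was 0.52.

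Mzb1 was higher than PBS in conventional dendritic cells at 3 days (4.97) and lower in monocytes and macrophages (-1.33). Derl3 showed the same opposite signs, at 1.71 and -1.38. At 7 days Mzb1 stood at 2.88 in gamma-delta T cells, from 14 UMIs against 3, and at -3.36 in monocytes and macrophages. None of these differences was tested, and most Mzb1 UMIs of the dendritic cells at 3 days, and of the monocytes and macrophages in PBS, were in cells that carried immunoglobulin transcripts.

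Barcodes with at least 200 but under 1000 UMIs, which no comparison used, included 129 of 484 at 3 days with at least 10% immunoglobulin UMIs, against 6 of 431 in PBS and 2 of 473 at 7 days. Their member share at 3 days was 1.45%, where the other barcodes of that size had 0.563% and free RNA 1.02%. In PBS the share was 1.89%, and at 7 days 3.52% on 426 UMIs.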

How the results depend on the processing

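Values are given for PBS, 3-day WGP and 7-day WGP in turn. The member share of plasma cells (2.27%, 2.90% and 1.96%) was 4.17%, 5.02% and 4.69% by UMIs other than immunoglobulin, 3.29%, 4.42% and 3.80% with TMM scaling, 2.70%, 4.30% and 1.03% in Xist cells, 1.96%, 2.82% and 2.03% in Y cells, 2.20%, 2.84% and 1.98% with no doublets left out, and 2.21%, 2.87% and 2.00% with ER and immunoglobulin genes kept for clustering. It was 2.61% in PBS and 1.41% at 7 days under an upper limit of 20000 UMIs, 2.29% and 2.94% in PBS and at 3 days with free RNA subtracted, 2.91% and 2.05% at 3 and 7 days at resolution 1.6, and 2.02% at 7 days in cells with at least 10% immunoglobulin. The median ratio of plasma cells to B cells (1.97, 2.29 and 1.81) was 2.82, 3.05 and 3.04 by UMIs other than immunoglobulin, 2.85, 3.23 and 3.11 with TMM, 2.14, 3.05 and 1.11 in Xist cells, and 2.08 in PBS and 1.26 at 7 days under the upper limit. The median of WGP against PBS in plasma cells (0.28 at 3 days and -0.33 at 7 days) was 0.20 and 0.05 by UMIs other than immunoglobulin, 0.36 and 0.09 with TMM, 0.71 and -1.17 in Xist cells, 0.47 and -0.08 in Y cells, and 0.18 and -0.93 under the upper limit. In monocytes and macrophages (0.22 and -0.07) it was 0.37 and 0.17 with TMM, and at 7 days 0.28 in Y cells and 0.09 in the cluster that was largest in PBS. The sign of the 7-day median therefore rests on the scale in both classes. Without thinning, the median share of plasma cells with a UMI of a member was 92.9%, 95.9% and 86.9%.

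Members at least 2-fold higher than in B cells in every library numbered 31, 36 by UMIs other than immunoglobulin (where 1240 of the 11291 genes tested were, against 587 on the scale of all UMIs), 37 with TMM, 22 in Xist cells, 30 in Y cells and 23 under the upper limit, and 31 under the other alternatives. The smallest ratio turned to -0.36 for Pdia4 and -0.12 for Herpud1 in Xist cells, of which 9 were plasma cells at 7 days. In monocytes and macrophages at 3 days, Mzb1 turned to 1.10 under the upper limit and 0.61 at resolution 1.6, and Derl3 to 0.29 in Xist cells. Other than through the change of scale or of cells, the cause was not tested. The alternatives with at least 10% immunoglobulin and with single clusters were chosen after seeing the data. No paired analysis was possible because each group is 1 library, and no replicate could be left out.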
